A study of Homo sapiens with 2 samples.

Results

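The cyclin D/E, CDK and RB axis was described here by 10 genes chosen by name from what is known of the G1 phase of the cell cycle: CCND1, CCND2 and CCND3 (the D-type cyclins), CCNE1 and CCNE2 (the E-type cyclins), CDK4, CDK6 and CDK2 (the kinases these cyclins activate), CDKN2A (an inhibitor of CDK4 and CDK6) and RB1 (the retinoblastoma protein). They are 10 of the 28303 genes with a deposited value, and each was found by its Ensembl identifier in both libraries.

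In a dividing cell, growth signals raise the D-type cyclins, which bind CDK4 or CDK6 and begin to phosphorylate RB1. Phosphorylated RB1 lets go of the E2F factors, whose targets include the E-type cyclins. Cyclin E with CDK2 then phosphorylates RB1 further and the cell enters S phase. In gastric cancer, as in other epithelial cancers, amplification of cyclin or CDK genes and loss of CDKN2A or RB1 are known ways in which this restraint is weakened.

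RNA was sequenced from HGC27 cells, a long-established line from a human gastric cancer, with 1 library per group. The control cells had received the control plasmid pcDNA3.1-control, and the cells of the other group, called the LINC01133 library below, pcDNA3.1-linc01133, which carries the long non-coding RNA LINC01133. Both were transfected with Turbofect, harvested 48 h later and recorded at passage 4 to 6, per the labels. The transfection was transient, the share of cells that took up a plasmid is not given in the sources used here, and no difference below has a replicate check. In these bulk libraries fewer cells expressing a gene and less RNA of it per cell cannot be told apart.

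Values are FPKM, the fragments counted for a gene per kilobase of its exons, scaled to the counted fragments of the library, and rest on 15666629 counted fragments (control) and 16302581 (LINC01133). Ranges after a value are exact 95% intervals that cover counting error only. LINC01133 (ENSG00000224259) stood at 0.0809 FPKM (4 fragments) in the control and at 1.44 FPKM (74 fragments) in the LINC01133 library, 17.8 times as high (6.66 to 67.0), in the direction of the labels. No epithelial marker reached a mean of 1 FPKM among the 6 listed (EPCAM, KRT8, KRT18, KRT7, CDH1 and CLDN4), with KRT18 listed at 0 in both libraries, so the epithelial origin of the line is not seen in these markers. Of 4 mesenchymal markers, VIM, a filament protein, stood at 198 FPKM in the control and 210 FPKM in the LINC01133 library, FN1 at 3.498 and 3.62 FPKM, ZEB1 at 3.06 and 7.82 FPKM (a log2 ratio of 1.12) and CDH2 near 0, at 0.0516 and 0.0744 FPKM. With the trends described below subtracted, the log2 ratio of ZEB1 was 0.17, that of VIM 0.42 and that of FN1 0.07. PTPRC, a marker of blood cells, and VWF, of endothelium, lay at or below 0.0659 FPKM in both. Of the proliferation markers, MKI67 stood at 11.4 and 20.6 FPKM, TOP2A at 40.5 and 119 FPKM and PCNA at 145 and 159 FPKM, with log2 ratios of 0.80, 1.53 and 0.12 as deposited and 0.70, 0.64 and -0.04 with the trends described below subtracted. Their part in the differences below was not tested.

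The axis was expressed in both libraries, and its 10 genes did not differ in 1 direction. RB1, CDK6 and CCNE2 were 2.91 to 4.65 times as high in the LINC01133 library, CDKN2A, CDK4 and CCND3 were 0.619 to 0.719 times as high, and CCND1, CCND2, CCNE1 and CDK2 differed by a factor of at most 1.14. The call used the log2 ratio of FPKM + 1, overexpression over control, at a size of 1 or more, which is 2-fold; adding 1 shrinks the ratios of weakly expressed genes. By that count 3 of the 10 genes were called higher, beside 11.9% of all 11945 genes with a mean of at least 1 FPKM, and 0 of 10 were lower, beside 0.444%. The median log2 ratio was 0.12 over the 10 genes and 0.10 over all 11945. All 10 genes had a mean of at least 1 FPKM, CCNE2 only through its value in the LINC01133 library.

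**Figure D1:**
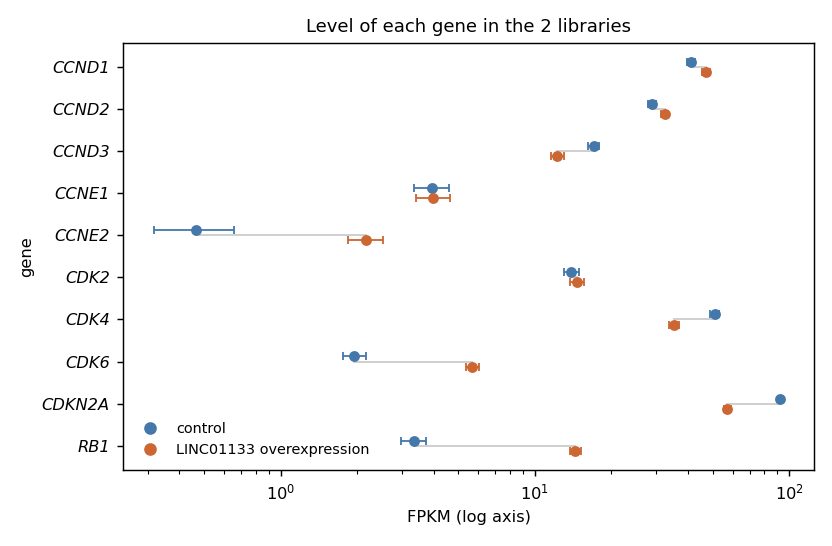
Level of each of the 10 genes in FPKM (log axis) in the control library (blue) and the LINC01133 library (orange), 1 library each; bars are exact 95% Poisson intervals of the fragment counts. CDKN2A is the highest gene in both libraries (92.4 and 57.1 FPKM) and CCNE2 the lowest (0.465 and 2.16 FPKM); the widest gaps between the libraries are those of RB1, CCNE2 and CDK6.

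The libraries were scaled to their total of counted fragments, and other scalings move every ratio together. The median of all genes moved by -0.16 on the log2 scale under the trimmed mean of M values, by -0.15 under median-of-ratios scaling and by -0.32 under upper-quartile scaling. The log2 ratios of CCND1, CCND2, CCNE1 and CDK2 lay above 0 as deposited and below 0 under each of these 3 scalings, so no direction is given for these 4 genes. The other 6 kept their sign. Under upper-quartile scaling RB1 alone was still 2-fold higher, with a log2 ratio of 1.48, against 0.91 for CCNE2 and 0.87 for CDK6, and CDKN2A reached 2-fold lower at -1.08. RB1 alone was also called with a pseudocount of 5 or a mean of at least 5 FPKM. Relative to the median of all genes, the log2 ratios were 1.73 for RB1, 1.08 for CDK6, 1.01 for CCNE2, -0.54 for CCND3, -0.62 for CDK4 and -0.78 for CDKN2A.

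The D-type cyclins link growth signals to CDK4 and CDK6. CCND1 (ENSG00000110092, GRCh38 chr11:69641087-69654474, plus strand) stood at 41.3 FPKM (39.8 to 42.7) in the control and at 47.2 FPKM (45.6 to 48.7) in the LINC01133 library, a ratio of 1.14 (1.09 to 1.20). CCND2 (ENSG00000118971, chr12:4273772-4305350, plus strand) stood at 28.9 FPKM (27.9 to 29.9) and 32.4 FPKM (31.4 to 33.5), a ratio of 1.12 (1.07 to 1.18). CCND3 (ENSG00000112576, chr6:41934933-42050357, minus strand) stood at 17.0 FPKM (16.2 to 17.9) and 12.2 FPKM (11.5 to 13.0), a ratio of 0.719 (0.666 to 0.777). For all 3 genes the counting intervals of the libraries do not overlap as deposited. CCND3 was lower in the LINC01133 library under every scaling tried. CCND1 and CCND2, above 1 as deposited, lay closer to no difference than CCND3 under the other 3 scalings. Under median-of-ratios scaling the log2 ratios were -0.0018 for CCND1, -0.026 for CCND2 and -0.63 for CCND3. Under upper-quartile scaling they were -0.21, -0.23 and -0.82.

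Summed, the D-type cyclins stood at 87.2 FPKM in the control and 91.8 FPKM in the LINC01133 library. CCND1 made up 47.3% of that sum (46.2 to 48.5) in the control and 51.3% (50.3 to 52.4) in the LINC01133 library, and CCND3 19.5% (18.7 to 20.4) and 13.3% (12.6 to 14.1). CCND1 was thus the most abundant D-type cyclin per length in both libraries, with CCND2 at 33.1% and 35.3%. Scaled to the representative transcript in place of all merged exons, the share of CCND1 was 38.7% and 44.7%. It was still ahead of CCND3 at 34.5% and 25.1% and of CCND2 at 26.7% and 30.3%.

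CDK4 and CDK6 are the kinases that D-type cyclins activate. CDK4 (ENSG00000135446, chr12:57747727-57756013, minus strand) stood at 51.0 FPKM (49.0 to 53.0) in the control and 35.2 FPKM (33.6 to 36.9) in the LINC01133 library, a ratio of 0.69 (0.649 to 0.733). CDK6 (ENSG00000105810, chr7:92604921-92836594, minus strand) stood at 1.95 FPKM (1.76 to 2.16) and 5.68 FPKM (5.36 to 6.02), a ratio of 2.91 (2.59 to 3.28) on 375 and 1136 fragments. The 2 kinases thus lay on opposite sides: CDK4 was lower and CDK6 higher in the LINC01133 library. CDK4 was 26.1 times as abundant per length as CDK6 in the control and 6.19 times in the LINC01133 library. Its share of their summed FPKM was 96.3% (95.9 to 96.7) and 86.1% (85.2 to 87.0). With the trends described below subtracted, the log2 ratio went from -0.52 to -0.20 for CDK4 and from 1.18 to 0.31 for CDK6.

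The E-type cyclins activate CDK2 and are themselves E2F targets. CCNE1 (ENSG00000105173, chr19:29811898-29824308, plus strand) stood at 3.93 FPKM (3.34 to 4.59) in the control and 3.99 FPKM (3.41 to 4.65) in the LINC01133 library, a ratio of 1.02 (0.812 to 1.27), so a difference was not detectable at this depth (157 and 166 fragments). CCNE2 (ENSG00000175305, chr8:94879770-94896678, minus strand) stood at 0.465 FPKM (0.318 to 0.656) and 2.16 FPKM (1.84 to 2.53), a ratio of 4.65 (3.17 to 7.04) that rests on 32 and 155 fragments. CDK2 (ENSG00000123374, chr12:55966769-55972784, plus strand) stood at 13.9 FPKM (13.0 to 14.9) and 14.7 FPKM (13.7 to 15.6), a ratio of 1.05 (0.959 to 1.16), whose interval also includes 1. Of the 3 genes only CCNE2 differed beyond its counting interval.

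CCNE1 made up 89.4% (85.2 to 92.7) of the summed FPKM of the E-type cyclins in the control and 64.9% (59.6 to 69.8) in the LINC01133 library. Per length, CCNE1 was 8.46 times as abundant as CCNE2 in the control and 1.85 times in the LINC01133 library. With the trends described below subtracted, the log2 ratios were 0.31 for CCNE1 and 0.08 for CCNE2, so CCNE2 no longer had the higher ratio. The sum of the E-type cyclins stood at 4.39 and 6.16 FPKM, against 87.2 and 91.8 FPKM for the D-type cyclins.

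**Figure D2:**
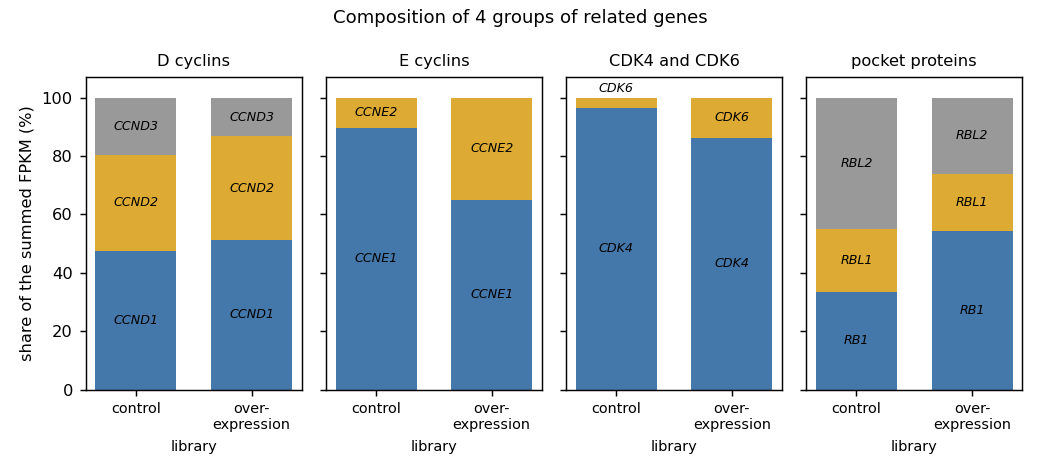
Share of each gene (%) in the summed FPKM of 4 groups: D-type cyclins, E-type cyclins, CDK4 with CDK6, and the pocket proteins RB1, RBL1 and RBL2, in the control and the LINC01133 library (1 bar each). CCND1, CCNE1 and CDK4 lead their groups in both libraries, while RB1 goes from 33.6% of the pocket proteins in the control to 54.4% in the LINC01133 library. The shares are as deposited, with no trend on GC content or length subtracted.

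CDKN2A encodes p16INK4a, which binds CDK4 and CDK6 and keeps D-type cyclins off them, and, from another first exon in another reading frame, p14ARF, which stabilises p53. The gene (ENSG00000147889, chr9:21967753-21995301, minus strand) stood at 92.4 FPKM (90.1 to 94.7) in the control and 57.1 FPKM (55.4 to 58.9) in the LINC01133 library, a ratio of 0.619 (0.594 to 0.644) on 6264 and 4032 fragments. It was the most abundant of the 10 genes per length in both libraries and higher than 96.6% of all genes past the filter in the control and 94.8% in the LINC01133 library. A value per gene does not tell the 2 products apart. CDKN2A stood at 1.74 times the summed FPKM of CDK4 and CDK6 in the control and at 1.40 times in the LINC01133 library.

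RB1 encodes the pocket protein that holds E2F factors inactive. The gene (ENSG00000139687, chr13:48303726-48599436, plus strand) stood at 3.34 FPKM (2.99 to 3.73) in the control and 14.4 FPKM (13.7 to 15.2) in the LINC01133 library, a ratio of 4.32 (3.83 to 4.89) on 323 and 1452 fragments. Its log2 ratio of 1.83 was above that of 98.8% of all genes past the filter. These fragment counts use an exon length of 6169 bases, the single length near the annotated one at which both values came out as whole fragments. CDK4 and CDK6 together stood at 15.8 times the FPKM of RB1 in the control and at 2.83 times in the LINC01133 library, and CDKN2A at 27.6 and 3.96 times. RBL1 (p107) and RBL2 (p130), the other pocket proteins, stood at 2.12 and 4.49 FPKM in the control and at 5.13 and 6.99 FPKM in the LINC01133 library, log2 ratios of 0.97 and 0.54. With the trends described below subtracted, these log2 ratios were 0.17 and 0.05, and that of RB1 was 0.79.

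Ordered by FPKM in the control, the 10 genes ran CDKN2A, CDK4, CCND1, CCND2, CCND3, CDK2, CCNE1, RB1, CDK6 and CCNE2, and the counting intervals of neighbours overlapped only for CCNE1 and RB1. In the LINC01133 library the order was CDKN2A, CCND1, CDK4, CCND2, CDK2, RB1, CCND3, CDK6, CCNE1 and CCNE2, with an overlap only for CDK2 and RB1. Both orders depend on the length used. Scaled to the representative transcript, CCND3 stood ahead of CCND2 in the control, at 34.5% and 26.7% of the D-type cyclins. RB1 stood in the eighth place in the control and in the sixth in the LINC01133 library, while CDKN2A kept the first place and CCNE2 the last.

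The differences followed the base composition of the transcripts. GC content was taken from the longest coding transcript of each gene that has a 3′ UTR, called the representative transcript. It was 36.9% for CCNE2, 37.3% for RB1 and 39.5% for CDK6, the 3 genes that were at least 2-fold higher, and 53.6% for CDK4, 56.2% for CCND3 and 61.4% for CDKN2A, the 3 with the lowest ratios. Across the 10 genes Spearman's correlation of GC content with the log2 ratio was -0.915, and across the 11913 genes past the filter with a GC content it was -0.80; genes are not independent replicates and all points share the same 2 libraries.

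The 60 bases at the centre of the coding part are printed for 3 of the genes, with G and C in capitals. The sequences are those of the GENCODE 29 transcripts on GRCh38, 5′ to 3′ on the coding strand. RB1 is shown as the gene with the largest log2 ratio, and CDK4 and CDK6 as the pair of kinases that lay on opposite sides.
RB1: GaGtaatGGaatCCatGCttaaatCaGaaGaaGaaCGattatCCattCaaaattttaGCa
CDK6: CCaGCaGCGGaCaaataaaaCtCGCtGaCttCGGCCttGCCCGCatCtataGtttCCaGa
CDK4: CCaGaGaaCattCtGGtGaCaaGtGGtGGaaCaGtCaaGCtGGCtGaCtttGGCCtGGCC
These hold 19, 31 and 33 G or C bases in the order printed. CDK6 and CDK4 thus differ by few G or C bases in the coding stretch and by more in the untranslated sequence. The coding part of CDK6 was 52.0% GC, but its 3′ UTR of 10219 bases made up 88.0% of the transcript and was 37.1% GC. In CDK4 the coding part was 54.1% GC and the 3′ UTR, of 798 bases, 46.2% GC. RB1 was AT-rich throughout, with 39.0% GC in the coding part and 31.3% in the 3′ UTR, and CDKN2A had 71.4% GC in its coding part.

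**Figure D3:**
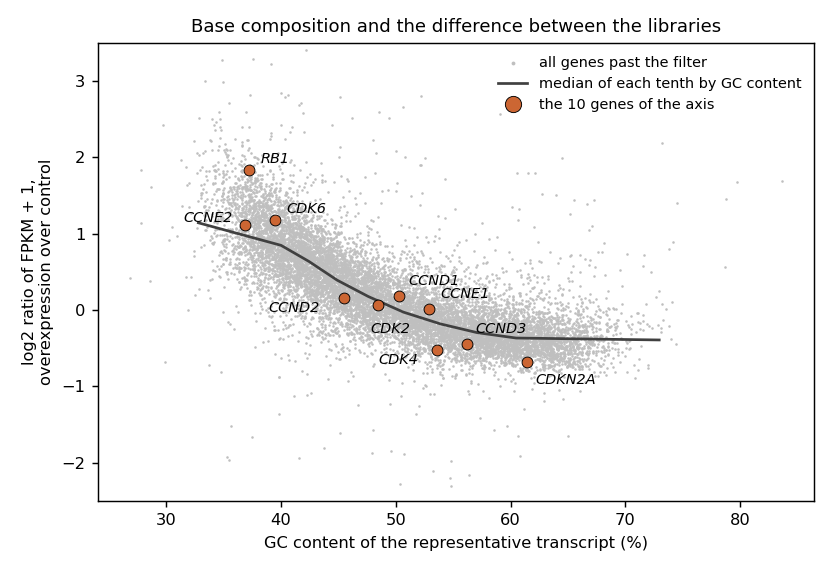
GC content of the representative transcript (%) against the log2 ratio of FPKM + 1, overexpression over control, for the 10 genes (orange) and all genes past the filter (grey; 5 genes lie outside the plotted range); the line joins the medians of 10 equal groups by GC content. RB1, CDK6 and CCNE2 lie on the AT-rich side at log2 ratios of 1.83, 1.18 and 1.11, and CDKN2A, CDK4 and CCND3 on the GC-rich side at -0.68, -0.52 and -0.44.

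Each gene can be read beside genes of like GC content. All genes were split by GC content into 10 groups of equal size, numbered from the most AT-rich. RB1 and CCNE2 fall in group 1 (26.9 to 38.7% GC), whose log2 ratios had a median of 1.14 and quartiles of 0.82 and 1.44, and in which 60.7% reached 2-fold. CCNE2, at 1.11, lay at that median, and RB1, at 1.83, lay above the upper quartile. In group 2, which holds CDK6, the median was 0.85 and the upper quartile 1.11, just under the 1.18 of CDK6. In group 7, which holds CDK4 and CCNE1, the median was -0.18 and the quartiles were -0.35 and -0.0032: CDK4 at -0.52 lay below them and CCNE1 at 0.02 above. CDKN2A at -0.68 lay below the lower quartile of its group, -0.51, and CCND3 at -0.44 within the quartiles of its own, -0.45 and -0.13. CCND2 at 0.16 lay just below the lower quartile of its group, 0.17.

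With smooth trends on GC content and then on transcript length subtracted from the log2 ratios of all genes, 0 of the 10 genes reached 2-fold higher, beside 1.7% of 11913 genes, and 0 reached 2-fold lower, beside 0.764%. The largest value left was that of RB1, 0.79, followed by CDK6 at 0.31, CCNE1 at 0.31 and CCND1 at 0.26. CCNE2 went from 1.11 to 0.08 and CDKN2A from -0.68 to -0.11. CDK4 went from -0.52 to -0.20, CCND3 from -0.44 to -0.05, CDK2 from 0.07 to 0.10 and CCND2 from 0.16 to -0.13. The median of the 10 genes was then 0.09 and that of all genes 0.10. A difference in base composition between the libraries and one in the cells cannot be told apart with 1 library per group.

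**Figure D4:**
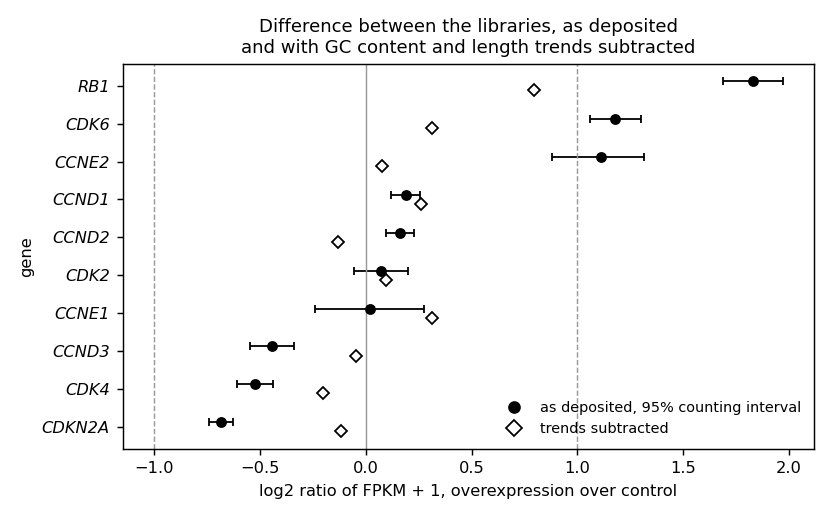
Log2 ratio of FPKM + 1, overexpression over control, of the 10 genes as deposited (filled, with exact 95% counting intervals) and with the trends on GC content and length subtracted (open diamonds); dashed lines mark 2-fold. RB1, CDK6 and CCNE2 lie beyond the right dashed line as deposited, and each of the 10 lies between the dashed lines with the trends subtracted.

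MicroRNA sites were searched because work on LINC01133 in gastric cancer has named miR-145-5p as an RNA it binds; the miRNA itself was not measured here. Its mature sequence, from RefSeq on GRCh38.p14 (chr5:149430661-149430683, plus strand), is shown with the seed, bases 2 to 8, in capitals, and the 2 windows below it are from the CDK6 3′ UTR with the bases complementary to the seed (AACTGGA) in capitals.
miR-145-5p: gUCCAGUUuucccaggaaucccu
CDK6 site 1: aatgcagctgttctgAACTGGAa
CDK6 site 2: caataatcctttggaAACTGGAt
These sites start at bases 2388 and 9872 of the 3′ UTR. The 3′ UTRs of the other 9 genes held none. Among 10302 genes past the filter with a 3′ UTR, 14.7% held 1 or more such sites and 2.33% held 2 or more, but the 3′ UTR of CDK6 was longer than that of 99.1% of them. Of the 753 genes with a 3′ UTR at least 0.5 times as long as that of CDK6, 47.0% held 1 or more. The share of these 753 with 2 or more was not taken, so the 2 sites of CDK6 have no share at like length beside them. A match of letters is a description and no evidence of binding.

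Promoters of 6 of the 10 genes were matched in RefSeq (GRCh38.p14) in 10 windows of 300 bases, from 250 before to 50 after a transcription start: CCND3, CCNE1, CDK4, CDK6, CDKN2A and RB1. They were searched on both strands for 4 forms of the E2F motif, TTTCGCGC, TTTGGCGC, TTTCCCGC and TTTGCCGC. None of the 10 windows held one, beside 3.31% of all 35116 windows. That says only that these letters are not in these windows.

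The genes around the axis were followed in 12 lists of 94 genes, 87 of them past the filter. Of these 87, 7 were at least 2-fold higher (MNAT1, CDK1, CCNC, CCNT2, CCNG1, ARID4A and MTAP) and 0 at least 2-fold lower, shares to be read beside the 11.9% and 0.444% of all genes. Their median log2 ratio was 0.29 and their median GC content 45.2%, against 0.10 and 49.0% over all genes. Under upper-quartile scaling 5 were higher and 3 lower, beside 678 and 447 of all 11945 genes. With the trends subtracted, the median was 0.05 and 1 gene, CCNG1, was still 2-fold higher.

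**Figure D5:**
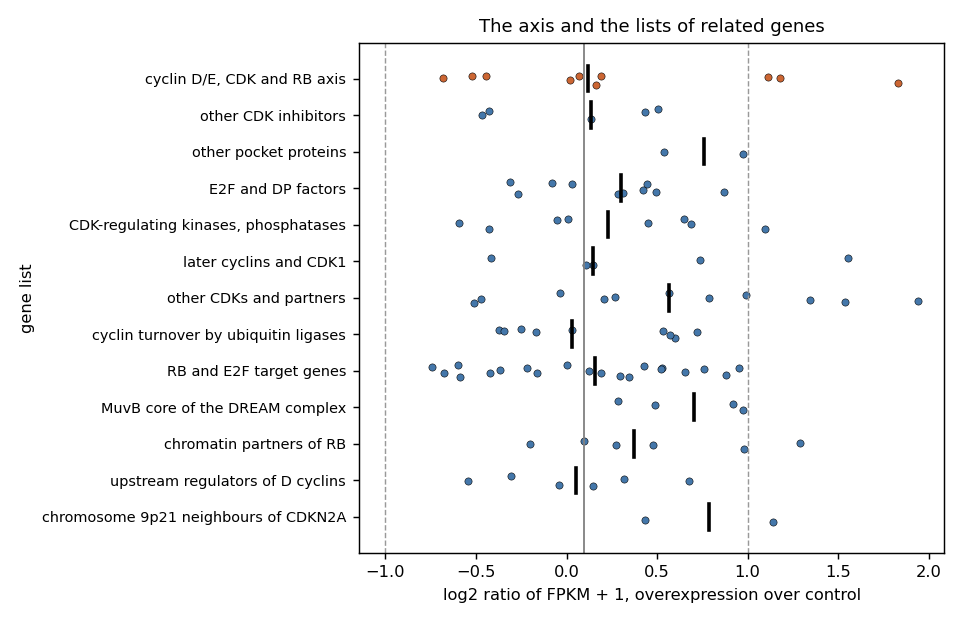
Log2 ratio of FPKM + 1, overexpression over control, of each gene past the filter in the axis (orange) and in the 12 lists of related genes (blue); black ticks are list medians, the grey line is the median of all genes (0.10) and dashed lines mark 2-fold. The axis spans from -0.68 to 1.83, and, as deposited, no gene of any list lies beyond the left dashed line.

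Among the other CDK inhibitors 0 of 5 genes past the filter were 2-fold higher or lower. CDKN1A (p21), a target of p53, stood at 26.3 FPKM in the control and 19.3 FPKM in the LINC01133 library, a log2 ratio of -0.43. CDKN1B (p27), which binds cyclin E with CDK2, stood at 20.4 and 29.5 FPKM, a log2 ratio of 0.51. The inhibitors of CDK4 and CDK6 related to CDKN2A spread around 0 as deposited. CDKN2B (p15) had a log2 ratio of 0.43, CDKN2C (p18) of 0.13 and CDKN2D (p19) of -0.47. With the trends subtracted all 5 lay above 0: CDKN2C at 0.56, CDKN1B at 0.46, CDKN2B at 0.10, CDKN2D at 0.09 and CDKN1A at 0.02. CDKN1C, at 0.617 and 0.498 FPKM, did not pass the filter.

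Downstream of RB1, 0 of the 10 E2F and DP factors were 2-fold higher or lower. As deposited, E2F7 had the highest log2 ratio, 0.87 (6.35 and 12.4 FPKM), and E2F1 the lowest, -0.31 (28.995 and 23.1 FPKM). These were 0.36 and 0.20 with the trends subtracted. The highest of the 10 was then E2F2 at 0.38 and the lowest TFDP1 at -0.20. Of the 20 RB and E2F target genes, 0 were 2-fold higher or lower, and 12 had log2 ratios above 0, beside 55.4% of all genes past the filter. The median of the list was 0.16 as deposited and -0.04 under the trimmed-mean scaling. Under upper-quartile scaling 3 of the 20 were 2-fold lower, beside 447 of all 11945 genes. They were TK1 at -1.14, CDT1 at -1.07 and MYBL2 at -1.003, of which CDT1 and MYBL2 are named after their values were seen. TK1, thymidine kinase, had the lowest log2 ratio, -0.74 (160 and 95.1 FPKM). With the trends subtracted the median of the list was 0.06, and TK1 stood at -0.18, CDT1 at -0.18 and MYBL2 at -0.12.

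Among the later cyclins and CDK1, CDK1, the kinase of entry into mitosis, stood at 14.97 FPKM in the control and 45.9 FPKM in the LINC01133 library, a log2 ratio of 1.56 as deposited and 0.59 with the trends subtracted. CCNA2, its partner and that of CDK2, had a log2 ratio of 0.74, CCNB1 of 0.15, CCNB2 of 0.11 and CCNF of -0.42, while CCNA1 did not pass the filter. With the trends subtracted CCNA2 stood at 0.20, CCNB1 at -0.26, CCNB2 at -0.20 and CCNF at -0.05. Of the kinases and phosphatases that act on CDKs, 1 of 8 was 2-fold higher, beside 11.9% of all genes. It was MNAT1, the assembly factor of the CDK-activating kinase, at 2.06 and 5.54 FPKM and a log2 ratio of 1.09. That call was lost under each of the 3 other scalings, at 0.95, 0.94 and 0.78. MNAT1 is 36.7% GC, and its log2 ratio was 0.07 with the trends subtracted. PKMYT1, which inhibits CDK1, had the lowest value of that list as deposited, -0.60, and stood at -0.06 with the trends subtracted.

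Of the other CDKs and their partners, 3 of 11 were 2-fold higher, beside 11.9% of all genes. The median GC content of the list was 40.8%, which falls in group 2 by GC content, where 34.3% of genes were 2-fold higher. CCNG1, a p53 target, stood at 10.4 FPKM in the control and 42.8 FPKM in the LINC01133 library, with a log2 ratio of 1.94 as deposited and 1.06 with the trends subtracted. CCNC, the cyclin of the Mediator kinases, had a log2 ratio of 1.54 and CCNT2, a partner of CDK9, of 1.34. With the trends subtracted these were 0.72 and 0.26. CDK5 had the lowest value of the list, -0.51, and CDK3 was listed at 0 in both libraries. TEN1-CDK3, annotated on the same strand, covers 91.2% of the exon bases of CDK3, so that 0 is uncertain. Among genes of cyclin turnover by ubiquitin ligases 0 of 9 were 2-fold higher or lower, from SKP2, which targets p27, at 0.72 to RBX1 at -0.37.

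In the MuvB core, which joins RBL1 or RBL2 in the repressive DREAM complex, 0 of 4 genes past the filter were 2-fold higher or lower: LIN54 had a log2 ratio of 0.97, LIN9 of 0.92, RBBP4 of 0.49 and LIN52 of 0.28, and LIN37 did not pass the filter. With the trends subtracted the median of these 4 was -0.01. Of 6 chromatin partners of RB1, 1 was 2-fold higher, beside 11.9% of all genes. It was ARID4A, at 0.751 and 3.27 FPKM, with a log2 ratio of 1.29 as deposited and 0.26 with the trends subtracted. ARID4A passed the filter only through the LINC01133 library. HDAC2 had a log2 ratio of 0.98, KDM5A of 0.48, RBBP7 of 0.27, HDAC1 of 0.10 and SUV39H1 of -0.20.

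Of the upstream regulators of D-type cyclins 0 of 6 were 2-fold higher or lower. MYC, which activates CCND2, stood at 190 FPKM in the control and 153 FPKM in the LINC01133 library, a log2 ratio of -0.31, and AKT1 had the lowest value, -0.55. GSK3B, which marks cyclin D1 for export and decay, had a log2 ratio of 0.67, CTNNB1 of 0.32, TCF7L2 of 0.15 and MTOR of -0.04. No member of this list was called in either direction, and neither were CCND1, CCND2 and CCND3.

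The nearest protein-coding genes on the chromosome were read beside each gene of the axis. Beside CDKN2A, which was lower, MTAP, an enzyme of methionine salvage often lost together with it, stood at 1.43 and 4.35 FPKM, a log2 ratio of 1.14 (0.996 under the trimmed mean and 0.86 under upper-quartile scaling, below 2-fold), and CDKN2B had a log2 ratio of 0.43. CDKN2B-AS1, at 0.363 and 0.639 FPKM, and DMRTA1, at 0.550 and 0.859 FPKM, did not pass the filter. MTAP is 39.1% GC and the representative transcript of CDKN2A 61.4%. FAM133B, the nearest protein-coding gene below CDK6, stood at 0.501 and 4.30 FPKM, a log2 ratio of 1.82 at 36.5% GC, and passed the filter only through the LINC01133 library. DPY19L4, below CCNE2, had a log2 ratio of 1.37 at 35.6% GC. ITM2B, below RB1, had a log2 ratio of 0.53 against the 1.83 of RB1, and -0.37 against 0.79 with the trends subtracted. The log2 ratios of MTAP, CDKN2B, FAM133B and DPY19L4 were then 0.25, 0.10, 0.79 and 0.17.

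Among the other nearest protein-coding genes past the filter, URI1 above CCNE1 had a log2 ratio of 0.88 and TIGAR above CCND2 of 0.46. PARP11 below CCND2 had one of 0.43, TAF8 above CCND3 of 0.07 and C19orf12 below CCNE1 of 0.03. PARP11, at 0.710 and 1.31 FPKM, passed the filter only through the LINC01133 library. With the trends subtracted these log2 ratios were, in the order given, 0.30, 0.10, -0.43, -0.06 and -0.01. Neighbours with values below 0 as deposited were AGAP2 and CYP27B1 beside CDK4, at -0.11 and -0.12, RAB5B and DGKA beside CDK2, at -0.14 and -0.23, and BYSL beside CCND3, at -0.19. Their values were, in the same order, 0.30, 0.28, -0.36, -0.07 and 0.25 with the trends subtracted. MYEOV and FGF19 beside CCND1, TP53INP1 beside CCNE2 and SAMD9 beside CDK6 did not pass the filter.

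Exons shared with other genes limit some values, since the strand setting of the counting is not given in the sources used here. TSPAN31, on the opposite strand, covers 43.2% of the exon bases of CDK4 and stood at 1.54 and 1.98 FPKM, against 51.0 and 35.2 FPKM for CDK4. INTS8, on the opposite strand, covers 37.0% of the exon bases of CCNE2 and stood above it, at 4.13 FPKM in the control and 9.54 FPKM in the LINC01133 library, a log2 ratio of 1.04, so the value of CCNE2 is uncertain. For CDK2 the annotated antisense gene AC025162.1 covers 14.5% of exon bases and PMEL 2.29%, for CCND2 AC008012.1, on the same strand, covers 13.8% and CCND2-AS1 1.76%, for CCND1 LTO1 covers 10.3%, and for CDKN2A CDKN2B-AS1 covers 7.88%. AC087752.4, on the opposite strand, covers 0.091% of the exon bases of CCNE2. CCND3 shares 0.414% with AL513008.1 and CDK6 0.661% with AC002454.1, and CCNE1 and RB1 share no exon bases with another annotated gene.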

How the data were processed

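The 2 libraries of HGC27 cells held 1 sample per group. Messenger RNA was selected on poly-T beads and libraries were made with a NEBNext Ultra kit, per the labels' protocols. Per the submitters' processing notes the build was GRCh38 and the tools HTSeq 0.6.0, HISAT2 2.1.0 and Bowtie2 2.2.3; their roles, the annotation release and the strand setting are not given in the sources used here. The authors deposited 1 value per gene, read here as FPKM from the values: times the merged exon length in GENCODE 29 they were whole multiples of 1 fragment, within 0.02, for 94.5% and 94.4% of the 28109 genes with a length. These multiples gave fragments and depth. No test was possible with 1 library per group. Intervals are exact (95%): Poisson for levels, Clopper-Pearson for shares and for the conditional ratio; amplified fragments are not independent molecules. Shares of summed FPKM used fragments as the base of their intervals.

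Genes with a mean of at least 1 FPKM were kept and the pseudocount was 1. Trends were fitted by lowess (span 0.3; statsmodels 0.14.6), keeping the median, where 99.7% of genes had a GC content; the steps were tested on simulated data. An earlier run took, in error, the longest transcript whatever its type; the present choice was made after seeing those values. The members and lists were chosen with earlier results of these data known. Named were all members, genes of the related lists at least 2-fold higher or lower (otherwise the highest and the lowest; lists of 6 or fewer in full), nearest protein-coding neighbours and genes sharing exons; cell type markers were named outside the rule. A few items covered by this rule are left unreported here. Other scalings, pseudocounts, filters and fold thresholds were tried. The statistic code ran on numpy 2.4.6 and scipy 1.17.1.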

Additional observations from a re-analysis of the deposited data

How the results depend on the processing

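No paired analysis was possible because there was only 1 library per condition. The count of members at least 2-fold higher, 3, became 1 under upper-quartile scaling, with a pseudocount of 5 or with a mean of at least 5 FPKM, and 0 at 4-fold or with a trend on GC content, on GC content and length, or on those of the longest transcript of any type subtracted; the count lower, 0, became 1 under upper-quartile scaling and at 1.5-fold. Over all genes the count higher, 1421, was 678 under upper-quartile scaling, 2244 and 261 with pseudocounts of 0.1 and 5, 656 at a mean of 5 FPKM, 3199 and 92 at 1.5-fold and 4-fold, and 203, 219 and 213 with the GC content and length, GC content, and any-type transcript trends subtracted. The count lower, 53, was 447 (upper quartile), 112 (trimmed mean of M values), 99 (median of ratios), 127 and 6 (pseudocounts of 0.1 and 5), 109 (no filter), 10 (mean of 5 FPKM), 632 and 8 (1.5-fold and 4-fold), 91, 84 and 91 (the trends in that order) and 5 (protein-coding genes only). The 7 related genes 2-fold higher or lower (7 and 0) became 13 and 2 with pseudocounts of 0.1 and 5, 3 at a mean of 5 FPKM, 29 (24 higher, 5 lower) and 0 at 1.5-fold and 4-fold, 8 (5 higher, 3 lower) under upper-quartile scaling, and 1 with any of the trends subtracted. The members' median, 0.12, was -0.068 (median of ratios), -0.080 (trimmed mean) and -0.27 (upper quartile). By transcript length and by fragments, the share of CCND1 was 38.7% and 39.5% in the control and 44.7% and 42.9% in the overexpression library, and that of CDK4 97.4% and 87.1%, and 90.0% and 61.5%; by fragments that of CCNE1 was 83.1% and 51.7%. The causes were not tested. Depth limits CCNE2, with 32 control fragments, and CCNE1 most.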
